A study of Mus musculus with 8 samples.

Results

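The clustered histone genes were defined as every gene of the RNA-seq tables named Hist1h, Hist2h, Hist3h or Hist4h followed by its family, and were described in mouse pachytene spermatocytes (PS), which are in meiotic prophase, and in round spermatids (RS), the haploid cells that follow. This rule found 67 of 23343 gene names, held in 74 of 26099 transcript rows, and 1 of the 67 names joins Hist1h2bq with Hist1h2br. There were 6 H1, 18 H2A, 18 H2B, 12 H3 and 13 H4 genes. RNA-seq was from PS and RS of the Rnf8- and Scml2-dKO, a mouse deficient for both genes, with 2 samples per stage. H3K27ac ChIP-seq was from PS and RS of wild-type mice, again with 2 samples per stage, so RNA and chromatin came from different genotypes. All animals were adult C57BL/6, the tissue was testis, and the stages were separated by sedimentation of dissociated cells on a BSA gradient, on a small scale from single males for the dKO. The tables held no control genotype for RNA, so the comparison made here is RS against PS within the dKO.

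The genes of this class encode the bulk histones that package newly replicated DNA. Most of their mRNAs are intronless and end in a conserved stem-loop instead of a poly(A) tail, are made during S phase, and are degraded when replication ends. Testis also uses members of its own: Hist1h1t encodes the linker histone H1t of spermatocytes, and Hist1h2ba and Hist1h2aa encode TH2B and TH2A, which take the place of somatic H2B and H2A in meiotic and postmeiotic chromatin before protamines replace histones. H3K27ac marks active promoters and enhancers.

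The rows lay in 7 groups on the mm10 genome, split wherever neighbours were more than 100000 bp apart. The Hist3 group was at chr11:58948911-58956674 with 3 members. The largest cluster, Hist1, filled 4 groups of chromosome 13. Of these, chr13:21715763-21837530 held 17 members, chr13:22035166-22043610 held 5, chr13:23531044-23764414 held 29, and chr13:23933773-23934851 held the divergent pair Hist1h2ba and Hist1h2aa. The Hist2 group, chr3:96219916-96270192, held 10 members and Hist4h4 stood alone at chr6:136801553-136804431.

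The 3′ stem-loop is shown first because it is what sets these transcripts apart, and its presence was read from the genome sequence behind each row. Within 150 bases of the stop codon, a 16-base hairpin with a 4-base loop was found for 65 of the 69 rows that had an annotated coding end, at 63 distinct places and a median of 32 bases past the stop (range 22 to 59). Only 6 different hairpins occurred. They are printed as DNA of GRCm38.p6 (RefSeq), with the stem in capitals, and the number of places is given after the lines.
Form 1, as in Hist3h2a (chr11:58955172-58955187, plus strand): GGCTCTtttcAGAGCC
Form 2, as in Hist1h2ba (chr13:23933730-23933745, minus strand): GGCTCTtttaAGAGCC
Form 3, as in Hist1h4h (chr13:23531458-23531473, plus strand): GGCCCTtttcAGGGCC
Form 4, as in Hist1h4i (chr13:22040966-22040981, minus strand): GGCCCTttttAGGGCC
Form 5, as in Hist1h4b (chr13:23757366-23757381, plus strand): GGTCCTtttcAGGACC
Form 6, as in Hist2h2ac (chr3:96220418-96220433, minus strand): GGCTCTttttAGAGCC
Form 1 was at 41 places, form 2 at 9, form 3 at 8, forms 4 and 5 at 2 each and form 6 at 1. Forms 3, 4 and 5 were found in H4 genes and in no other family. The testis genes Hist1h1t and Hist1h2ba carried form 2 and Hist1h2aa carried form 1, so the testis genes had no hairpin of their own. No hairpin that met these rules followed the stop of Hist2h2be, Hist1h4a, Hist1h2an or Hist1h3g.

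Promoters are printed for the testis genes and for the somatic gene of the same family with the highest level in these samples. Each covers 250 bases before to 50 after the RefSeq start in GRCm38.p6, written 5′ to 3′ on the gene's own strand. Capitals mark exact matches on either strand and at any position to CCAAT (the CCAAT box), TATAAA (the TATA box) and ATTTGCAT (the octamer). All are elements known from histone promoters. A promoter without a mark was not shown to lack an element, since variant forms were not sought. TGACGTCA, also sought, was in none of the 6.
Hist1h2ba (chr13:23934107-23934406, minus strand): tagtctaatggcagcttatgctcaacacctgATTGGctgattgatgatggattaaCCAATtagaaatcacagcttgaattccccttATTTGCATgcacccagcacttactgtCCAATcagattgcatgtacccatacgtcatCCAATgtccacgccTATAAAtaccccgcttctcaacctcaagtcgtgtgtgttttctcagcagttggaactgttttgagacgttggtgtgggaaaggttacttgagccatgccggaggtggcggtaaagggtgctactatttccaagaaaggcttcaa
Hist1h2aa (chr13:23934187-23934486, plus strand): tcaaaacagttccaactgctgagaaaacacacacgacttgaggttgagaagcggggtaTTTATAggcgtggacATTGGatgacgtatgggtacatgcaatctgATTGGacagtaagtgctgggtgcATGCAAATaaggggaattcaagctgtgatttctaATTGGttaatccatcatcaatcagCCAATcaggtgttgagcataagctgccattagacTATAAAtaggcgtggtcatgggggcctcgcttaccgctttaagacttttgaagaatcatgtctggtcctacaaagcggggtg
Hist1h1t (chr13:23695561-23695860, plus strand): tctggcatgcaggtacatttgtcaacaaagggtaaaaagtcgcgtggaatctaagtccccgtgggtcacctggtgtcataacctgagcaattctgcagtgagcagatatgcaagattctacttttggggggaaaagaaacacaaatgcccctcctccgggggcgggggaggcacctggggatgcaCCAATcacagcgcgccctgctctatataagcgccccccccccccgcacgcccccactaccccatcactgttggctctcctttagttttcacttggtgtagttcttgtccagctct
Hist1h2bp (chr13:21787238-21787537, plus strand): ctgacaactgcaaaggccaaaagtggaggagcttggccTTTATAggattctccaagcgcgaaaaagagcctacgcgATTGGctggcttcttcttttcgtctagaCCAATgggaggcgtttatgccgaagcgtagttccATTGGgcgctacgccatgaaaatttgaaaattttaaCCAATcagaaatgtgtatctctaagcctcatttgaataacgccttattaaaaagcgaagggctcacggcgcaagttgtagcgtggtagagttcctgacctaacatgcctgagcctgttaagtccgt
Hist3h2a (chr11:58954435-58954734, plus strand): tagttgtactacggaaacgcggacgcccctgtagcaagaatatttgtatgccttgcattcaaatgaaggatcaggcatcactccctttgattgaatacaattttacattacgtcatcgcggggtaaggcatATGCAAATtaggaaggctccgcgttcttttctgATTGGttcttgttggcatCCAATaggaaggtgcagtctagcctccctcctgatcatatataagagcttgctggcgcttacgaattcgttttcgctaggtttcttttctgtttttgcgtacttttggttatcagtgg
Hist1h1c (chr13:23738557-23738856, plus strand): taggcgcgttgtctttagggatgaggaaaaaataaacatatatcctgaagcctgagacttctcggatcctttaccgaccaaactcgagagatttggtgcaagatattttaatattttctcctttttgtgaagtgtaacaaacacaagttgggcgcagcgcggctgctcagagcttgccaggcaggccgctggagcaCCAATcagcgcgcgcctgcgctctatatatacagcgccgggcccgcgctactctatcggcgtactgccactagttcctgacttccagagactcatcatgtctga
The Hist1h2ba and Hist1h2aa windows share 220 bases read from opposite strands, because the starts are 281 bases apart. The octamer and all 4 CCAAT of the pair are therefore the same sites. The TATAAA 94 bases before the Hist1h2ba start is also the same site as that 192 bases before the Hist1h2aa start. Hist1h1t and its somatic counterpart Hist1h1c each held 1 CCAAT, at 65 and 54 bases before the start. Hist1h2bp held 4 CCAAT and no octamer in this window, and Hist3h2a held 2 CCAAT and 1 octamer. The TATAAA 212 bases before the Hist1h2bp start is the same site as that 33 bases before the start of its divergent neighbour Hist1h2an.

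RefSeq promoters were matched for 61 of the 67 members (64 promoters, since some genes are present as copies). CCAAT was in 55 of the 64 (85.9%) against 37.4% of all 32851 promoters, and in every H1, H2A, H2B and H3 promoter but only 3 of 12 H4 promoters. TATAAA was in 35 (54.7%) against 13.6% of all. ATTTGCAT was in 14 (21.9%) against 1.74% of all, and these were 7 of 19 H2A and 7 of 17 H2B promoters and no other. The palindrome TGACGTCA, the site bound by CREB and CREM, was in 4 (6.25%) against 1.79% of all. Those 4 were the promoters of Hist1h2ag, Hist1h2bj, Hist1h4h and Hist1h4a. The Hist1h2ag and Hist1h2bj windows overlap, and their match is the same site. Windows of other divergent neighbours overlap too, so a site can be counted for both genes and the promoters are not independent. Matches after the start were counted as well. A match is a run of letters and not a measured binding site.

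The clustered histone genes were a very small part of the RNA in these cells. They took 1414 and 1480 reads in the PS samples and 683 and 599 in the RS samples, which is 142 and 153 CPM (reads of 1000000 on genes) in PS and 55.6 and 58.4 CPM in RS. The total on genes was 9655405 to 12289694 reads per sample, and 0 reads for a gene therefore allow up to 0.244 to 0.311 CPM (3 reads, counting error only). No read was found for 28 members (41.8%, against 17.65% of all genes), 1 to 9 reads over all samples for 19, 10 to 99 for 16, and 100 or more for 4 (5.97%, against 52.8% of all genes). The 4 were Hist2h2be, Hist3h2a, Hist1h2bp and Hist1h1t. Of the members with 0 reads, the first in alphabetical order were Hist1h1b, Hist1h1d, Hist1h2ac, Hist1h2ad, Hist1h2ae and Hist1h2ah, which encode replication-dependent H1 and H2A proteins.

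Most reads fell on rows whose annotated end carries a poly(A) signal, and most of those on 3 genes. Of the 74 rows, 17 had the poly(A) signal AATAAA or ATTAAA in their last 50 bases, against 68.1% of the 26049 rows of all genes on assembled chromosomes. These 17 rows held 88.9% of the reads of all clustered histone genes, and the 57 rows without the signal held 11.1%. Over all genes, rows with the signal held 79.6% of the reads. The share for the histone genes was 91.2% and 92.0% in PS and 84.2% and 81.5% in RS. Without Hist2h2be, Hist3h2a and Hist1h2bp it was 49.0% and 50.2% in PS and 39.0% and 38.3% in RS, on the 14 other rows with the signal. The 17 rows included the rows of Hist1h2bp, Hist3h2a, Hist2h2be, Hist1h1t, Hist1h1c and Hist1h2bc, and 15 of the 17 run more than 50 bases past the hairpin. The 33 rows that stop before the hairpin held 5.00% of the reads, and 17 of those 33 had none. The labels call the RNA polyA RNA, while the methods describe amplification of total RNA with Ovation RNA-Seq v2, and the part of either in these shares was not tested.

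Sequence shared between copies moved with the reads as well. Only unique alignments were counted, so each row was cut into 50-base windows, and those found once in the genome were counted (windows across an exon join included). In 18 rows at most 10% of the windows were unique, and these held 8 reads in all, with 16 of 18 at 0. The 11 rows with more than 90% unique windows held 2936 reads, 70.3% of those on members. Unique sequence alone did not go with reads: Hist1h1b and Hist2h2bb had 100% unique windows and 0 reads in every sample. Hist1h4a received 83 reads with 24.7% of its windows unique, so its level and those of other H4 genes are uncertain. Another 8 members overlap another member's row on the same strand (Hist1h1e with Hist1h2be, for example), none of them among the members tested below.

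**Figure D1:**
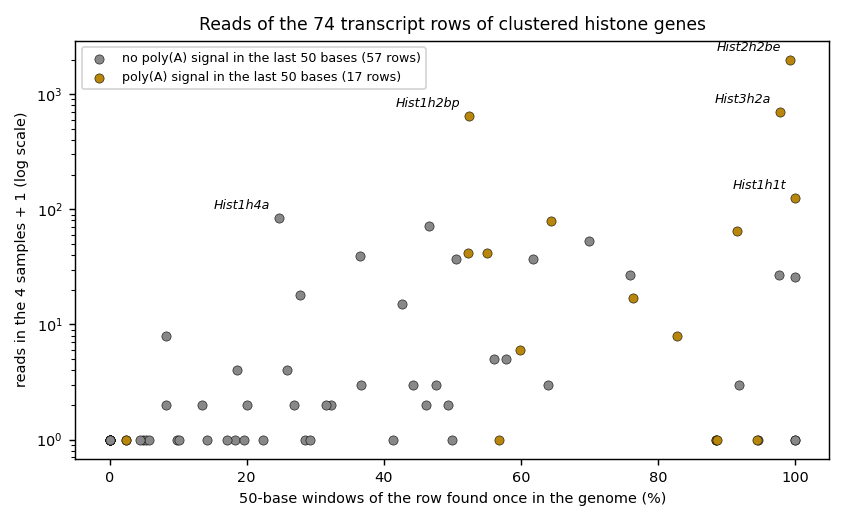
Reads of each of the 74 rows summed over the 4 RNA-seq samples plus 1 (vertical axis, log scale) against the percent of its 50-base windows that are unique in the genome (horizontal axis), coloured by whether a poly(A) signal lies in the last 50 bases. Hist2h2be, Hist3h2a, Hist1h2bp and Hist1h1t stand highest and all 4 have the signal, and 16 of the 18 rows at 10% or less lie at 0 reads.

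Levels per length are given as RPKM, reads per kilobase of transcript scaled to the depth of the sample, as deposited. The summed RPKM of all members was 83.7 and 89.0 in the PS samples and 71.8 and 64.5 in the RS samples, so every PS sample was above every RS sample. The log2 ratio of the stage means was -0.34. This small difference hid opposite changes in single genes: leaving out Hist1h2bp made it -1.29, and leaving out Hist2h2be made it 0.21. Reads instead of RPKM gave -1.37, since the PS reads fell mainly on the long Hist2h2be row.

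The H2A family summed to 23.3 ± 3.82 RPKM (SD, n = 2) in PS and 6.91 ± 3.20 in RS, a log2 ratio of -1.75, with Hist3h2a giving 52.6% of the PS sum. H2B summed to 46.8 ± 0.163 in PS and 42.4 ± 7.84 in RS, within the spread of the RS samples. Its main gene was Hist2h2be in PS, with 64.4% of the sum, and Hist1h2bp in RS, with 84.0%. H1 summed to 4.81 ± 1.15 and 4.09 ± 0.813, H3 to 2.94 ± 0.469 and 3.57 ± 1.54, and H4 to 8.52 ± 0.489 and 11.1 ± 2.89, and the values of the stages overlapped in H1 and H3. With 2 samples against 2 no exact test can give a two-sided p below 0.333, so sums were not tested.

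**Figure D2:**
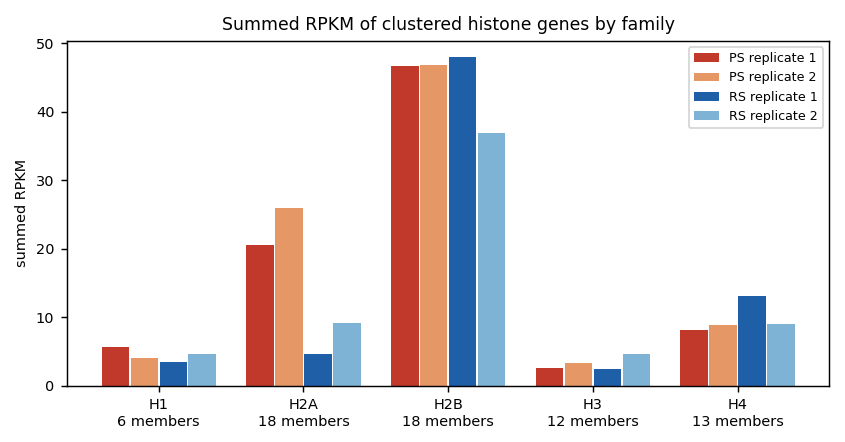
Summed RPKM (vertical axis) of the members of each histone family in each of the 4 RNA-seq samples, 1 bar per sample. H2A is lower in both RS samples than in both PS samples, while H2B stays between 36.9 and 48.0 in all 4.

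Of the 67 members, 14 had at least 10 reads in at least 2 samples and entered the fit with 14647 genes. Called genes had an adjusted p of 0.05 or less and a fold change of at least 1.5. In this fit 2 members were higher in RS, where 30.4% of all genes tested were, and 7 were lower in RS, where 27.6% of all genes were. The median log2 fold change was -1.31 over the 14 members and 0.009 over all genes. A member that reaches 10 reads in 1 stage only can pass this filter through that stage. Hist1h2ba, Hist1h2bc, Hist1h4h and Hist3h2bb-ps passed through PS alone, and Hist1h3a, Hist1h4a and Hist2h3c2 through RS alone. Of these, Hist1h2ba, Hist1h4h, Hist3h2bb-ps and Hist1h4a were called. Neither their calls nor these shares are therefore support for a shared direction. Without the filter the median was -0.145 over 39 members and 0.182 over all genes. DESeq2 called 2 higher and 5 lower, and the fit without a filter 2 higher and 8 lower. Without 1 of the RS samples 1 was higher (Hist1h2bp), and without PS replicate 1, PS replicate 2 or RS replicate 1, 4 were lower.

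Linker histones were described first. Hist1h1t received 39, 28, 29 and 29 reads in PS replicates 1 and 2 and RS replicates 1 and 2, and its RPKM was 3.75, 2.76, 2.27 and 2.70. In RPKM both PS samples were above both RS samples, but by little. Its log2 fold change was -0.35 (SE 0.33, adjusted p = 0.377 by edgeR), which did not pass. Hist1h1c, the somatic H1.2 gene, had 22, 15, 18 and 9 reads and did not pass either (log2 fold change -0.61, SE 0.45). Hist1h1a had 25 reads in all, and Hist1h1b and Hist1h1d had none.

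Of the testis core histone genes Hist1h2ba and Hist1h2aa, which lie head to head, only Hist1h2ba had enough reads to pass the filter. Hist1h2ba had 14, 15, 5 and 2 reads, and both PS samples were above both RS samples. It was lower in RS with a log2 fold change of -2.17 (SE 0.55, adjusted p = 0.00824 by edgeR), but DESeq2 did not call it (adjusted p = 0.0836). It was not called without either RS sample, and without either PS sample it had too few reads to be tested. Hist1h2aa had 6, 9, 6 and 5 reads, too few to be tested. Its RPKM was 1.71 ± 0.514 (SD, n = 2) in PS and 1.09 ± 0.00789 in RS. Whether the pair differ in their change was not tested.

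Among the somatic H2A genes, Hist3h2a had the most reads, 232 and 316 in PS and 57 and 96 in RS. Its RPKM was 10.2 and 14.3 in PS against 2.05 and 4.10 in RS, with no overlap. It fell by 1.98 on the log2 scale (SE 0.33, adjusted p = 0.000865 by edgeR). Hist2h2ac had 24 and 32 reads in PS and 3 and 11 in RS and also fell (log2 fold change -2.12, SE 0.58, adjusted p = 0.0120 by edgeR). This call was lost without RS replicate 1 (log2 fold change -1.28, adjusted p = 0.1495), and without RS replicate 2 the value was -3.34. Hist2h2ab, with 13, 6, 2 and 5 reads, was not tested. These genes encode replication-dependent H2A proteins, and those of Hist2 and Hist3 lie outside the main cluster.

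The H2B genes moved in opposite directions. Hist2h2be, a member known to be expressed also as a polyadenylated mRNA outside S phase, had 893 and 882 reads in PS and 100 and 118 in RS. Its RPKM was 29.9 and 30.3 in PS and 2.73 and 3.83 in RS, and the log2 fold change was -3.17 (SE 0.19, adjusted p = 5.08e-06 by edgeR). This was the clustered histone gene with the most reads and, among the 14 tested, the one with the most negative log2 fold change. Hist1h2bp, whose counted row is a spliced form of 594 bases that ends 1275 bases past the hairpin, had 46 and 43 reads in PS and 349 and 205 in RS. Its RPKM was 6.80 and 6.52 in PS and 42.0 and 29.3 in RS, and it rose with a log2 fold change of 2.46 (SE 0.26, adjusted p = 6.37e-05 by edgeR). The groups did not overlap for either gene, and both calls held in every alternative fit.

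The remaining H2B rows of the Hist3 group were weak. The pseudogene Hist3h2bb-ps had 26, 18, 4 and 4 reads and was lower in RS (log2 fold change -2.57, SE 0.49, adjusted p = 0.00196 by edgeR). Without either PS sample it had too few reads to be tested. Hist3h2ba had 3, 6, 1 and 6 reads and was not tested. Hist1h2bc, which encodes a replication-dependent H2B, had 10, 14, 9 and 8 reads and did not pass (log2 fold change -0.65, SE 0.47).

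The H3 genes gave 1 call. Hist2h3c1 had 31 and 35 reads in PS and 2 and 10 in RS and fell by 2.57 on the log2 scale (SE 0.60, adjusted p = 0.00547 by edgeR). Without RS replicate 1 the call was lost (log2 fold change -1.65, adjusted p = 0.0647), and without RS replicate 2 the value was -4.13. Its near copy Hist2h3c2 had 7, 6, 10 and 15 reads and did not pass (log2 fold change 0.79, SE 0.52). In the 500 bases on either side of the start 5.26% of the windows were unique for both genes, so reads of the pair near the start cannot be assigned. Hist1h3a, an H3.1 gene, had 2, 6, 10 and 18 reads, both RS samples above both PS samples, but missed the threshold (log2 fold change 1.64, SE 0.67, adjusted p = 0.0591 by edgeR). It passed without PS replicate 2, with limma on log2(RPKM + 1) and in the fit blocked by replicate (log2 fold change 1.67, adjusted p = 0.0229 by edgeR).

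The H4 genes also moved both ways, although most of them encode the same protein. Hist1h4a had 8 and 4 reads in PS and 47 and 24 in RS, with RPKM means of 1.70 ± 0.775 and 8.65 ± 2.995 (SD, n = 2). It rose by a log2 fold change of 2.37 (SE 0.50, adjusted p = 0.00325 by edgeR) and was left out by the filter when either RS sample was dropped. Hist1h4h had 13 and 19 reads in PS and 7 and 2 in RS and fell by 1.97 (SE 0.59, adjusted p = 0.0172 by edgeR), a call lost with DESeq2, without RS replicate 2 and, for want of reads, without either PS sample. Hist1h4b had 8 and 8 reads in PS and 1 and 0 in RS, too few for the filter, and was called lower in the fit without a filter (adjusted p = 0.00808 by edgeR). Hist4h4 had 0, 3, 2 and 2 reads. Hist1h4a and Hist1h4h were the H4 genes whose promoters held TGACGTCA, at 98 and 34 bases before the start in Hist1h4a and at 70 in Hist1h4h.

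**Figure D3:**
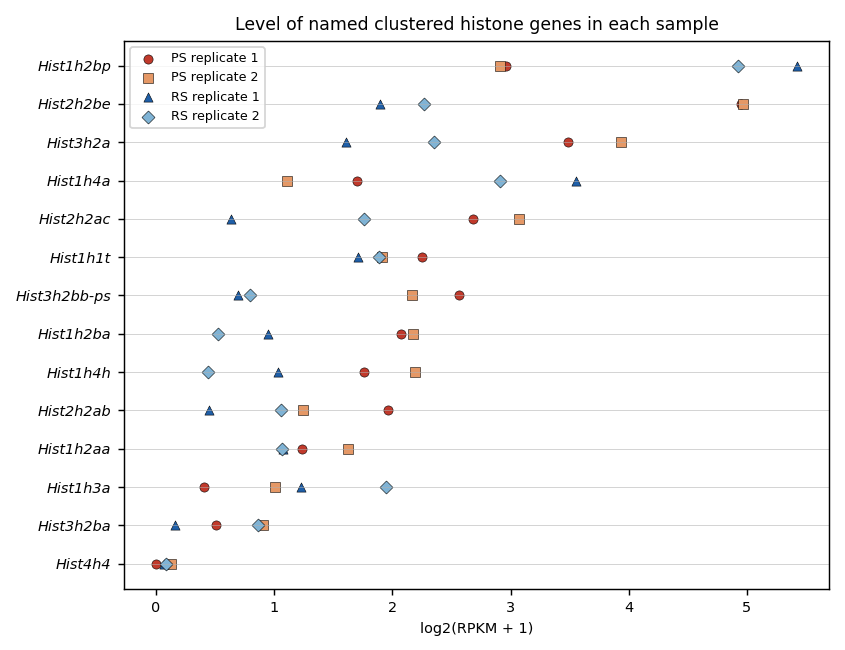
RPKM on the log2(RPKM + 1) scale (horizontal axis) of the 12 members with the highest level and of the other members of Hist3 and Hist4, 1 symbol per sample. Hist2h2be and Hist1h2bp hold opposite ends in the stages, and the 4 symbols of Hist1h1t lie close together.

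**Figure D4:**
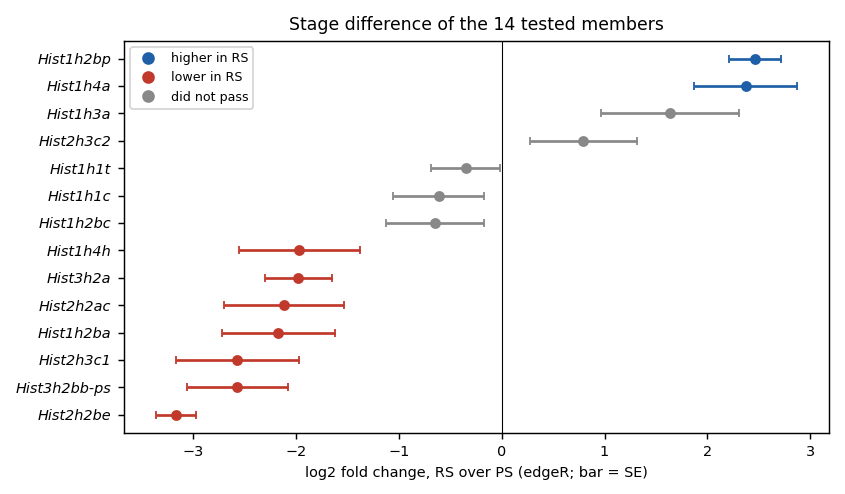
Log2 fold change of RS over PS (horizontal axis, edgeR, bars are the SE) of the 14 tested members, coloured by call. Values run from -3.17 for Hist2h2be to 2.46 for Hist1h2bp, with 7 members called lower and 2 higher.

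RNA of Leydig cell and macrophage markers differed between the stages as well. The 6 Leydig cell markers, Insl3 and Cyp17a1 among them, summed to 729 and 547 RPKM in PS and 68.3 and 42.6 in RS, and all 6 were lower in RS. The macrophage markers Cd68, Csf1r and Lyz2 were higher in RS, with list sums of 2.88 and 1.98 in PS and 40.1 and 34.3 in RS, while Hbb-b1 and Hba-a1 were at 0. Their part in the changes of Hist2h2be, Hist3h2a, Hist1h2bp and the other members was not tested. Over all genes tested, 30.4% were higher and 27.6% lower in RS. Of 6 Sertoli cell markers tested 2 were higher in RS (33.3%, median log2 fold change 0.22), near the share of all genes. Of 8 spermatogonial markers 4 were higher (50%, median 0.69). Of 10 round spermatid markers 9 were higher in RS (90%), with sums of 611 and 988 in PS and 14270 and 15110 in RS. Of 10 pachytene markers 6 were lower (60%). In bulk samples a fall in RNA per cell and a fall in the number of cells carrying it cannot be told apart. Reads on the deleted genes were 93, 110, 61 and 50 for Rnf8 and 40, 92, 44 and 98 for Scml2, but counts over whole genes do not separate deleted from remaining exons.

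A list of 38 genes covered histone mRNA transcription, 3′ processing and decay, with general transcription and cleavage factors among them. Of this list, 37 genes were found and all 37 were tested. In it 2 were higher (5.41%, against 30.4% of all genes tested) and 14 lower in RS (37.8%, against 27.6%), with a median log2 fold change of -0.45, against 0.009 over all genes. Slbp, which encodes the protein that binds the stem-loop, fell by 1.29 on the log2 scale, and Zfp473, which encodes the U7-associated zinc finger protein, fell by 1.36. Upf1, which acts in the decay of histone mRNA, fell by 2.64. Npat, the activator of histone loci, did not pass, with a log2 fold change of -0.02, and neither did Lsm10 (-0.57) nor Lsm11 (-0.67) of the U7 snRNP. The cleavage factor gene Cstf2t, a retrogene used in male germ cells, fell by 2.04 while Cstf2 rose by 2.22. Of 15 S phase genes 5 were higher (33.3%) and 2 lower in RS (13.3%, median 0.12), with Ccne2 and Pcna lower and Tk1 and Tyms higher.

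Histone chaperones, which carry histones to and from DNA, were lower in RS for 12 of 26 (46.2%, against 27.6% of all genes tested) and higher for 3 (11.5%, against 30.4%), and the other 11 were not called, with a median log2 fold change of -0.45. Nap1l1, Nap1l4, Rbbp4 and Supt16 fell by 1.36, 1.44, 1.65 and 1.47 on that scale. Nasp, which binds linker histones and H3 with H4, did not pass (-0.25).

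The replacement histones encoded outside the clusters stood far above the clustered genes in their sum, but not gene by gene. H2afj, for example, had 4.27 and 4.34 RPKM in PS and 3.25 and 3.21 in RS, below Hist2h2be in PS and Hist1h2bp in RS. The part of shared sequence and of missing poly(A) signals in the low sum of the clustered genes was not tested. The summed RPKM of the replacement histones was 767 and 752 in PS and 1605 and 1466 in RS. For the clustered genes it was 83.7 and 89.0, and 71.8 and 64.5. Of 13 tested, 4 were higher in RS (30.8%, against 30.4% of all genes tested) and 5 were lower (38.5%, against 27.6%). H2afz, encoding H2A.Z, had 186 and 184 RPKM in PS and 65.9 in each RS sample, and H3f3b, encoding H3.3, had 244 and 190 in PS and 135 and 116 in RS. The spermatid linker histone genes Hils1 and H1fnt rose, from 58.5 and 81.8 to 688 and 571 RPKM and from 19.4 and 32.6 to 363 and 352. H2afb1 of the same list rose from 11.87 and 18.35 to 213 and 227, so the higher sum in RS rests on few genes. No clustered gene reached the level of H2afz or H3f3b in any of the 4 samples, and the nearest was Hist1h2bp with 42.0 in RS replicate 1.

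Acetylation at the clustered genes was described in wild-type cells from the peak intervals of each sample. The 4 lists held 41095 and 49434 intervals in PS and 74919 and 45863 in RS and are not scaled to one another, so no level was tested. An interval lay within 2000 bp of the start in both PS samples for 56 of the 67 members (83.6%, against 55.5% of all genes). In both RS samples it did so for 39 members (58.2%, against 50.8%), and the same 39 had one in all 4 samples (48.8% of all genes). With RS replicate 2 left out the RS count was 59, and that sample had an interval at 39 members where RS replicate 1 had one at 59. Hist1h3g was the single member with an interval in both PS samples and neither RS sample (2.13% of all genes), and no member had the reverse (1.11% of all genes). Neighbours shared intervals, with 60 starts on 32 intervals in PS replicate 1 and 41 starts on 21 in RS replicate 2, so members are not independent.

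No interval in any sample was found at 6 members, which is 8.96% against 36.9% of all genes. Of these, Hist1h2ao, Hist1h2ap, Hist1h4m, Hist1h4n and the joined Hist1h2bq and Hist1h2br lie in a repeated block of the chromosome 13 group with 17 members. In the 500 bases on either side of their starts 0 to 9.67% of the 50-base windows were unique. The remaining one, Hist1h4f, had 85.8% unique windows around its start. Members with an interval in all 4 samples had a median of 79.2% unique windows, with a range of 5.26 to 100%. The lowest were Hist2h3c1 and Hist2h3c2, both at 5.26%. The part of shared sequence in the missing intervals was not tested. All 7 groups combined, with 2000 bp added at each end, were covered by intervals over 11.0% and 13.1% of their length in PS and 13.3% and 8.02% in RS, against 1.28 to 2.39% of the autosomes.

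Fold enrichment is the authors' ratio of the pileup at a summit to the background of its sample, and the highest value within 2000 bp of the start is given for each gene. Its median over members with an interval was 8.64 and 10.4 in PS and 6.10 and 8.13 in RS, below the 15.2, 16.4, 13.0 and 11.0 of all genes with one. The highest values were at few places. The shared promoter of Hist1h2ba and Hist1h2aa had 35.8 and 40.6 in PS and 19.9 and 13.9 in RS. Its interval was 5040 and 5086 bp wide in PS, wider than 99.8% of all intervals of those samples, and 3169 and 2114 bp in RS. It ran over both genes, as chr13:23930048-23935087 in PS replicate 1.

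Hist1h4h had 33.7 and 42.2 in PS and 13.8 and 8.13 in RS, and Hist3h2a, together with Hist3h2bb-ps, had 32.9 and 35.6 in PS and 19.9 and 16.3 in RS. Hist2h2be, Hist2h2ab and Hist2h2ac shared 28.0 and 28.5 in PS and 11.4 and 6.97 in RS. At all of these both PS samples were above both RS samples. Hist1h2bp had 22.6, 21.4, 21.6 and 19.7 over the 4 samples and Hist1h4a had 15.6, 23.0, 24.0 and 17.4, so the values of the stages overlapped. Hist1h1t had 10.7, 20.3, 15.9 and 9.87, the same as its neighbour Hist1h4c, and its start itself was not inside an interval in RS replicate 2. Hist1h2bp likewise had the values of Hist1h2an, and Hist1h4a those of Hist1h3a and Hist1h1a. Hist1h4h had those of Hist1h2af in all samples but RS replicate 2. Such values belong to a place and not to a single gene. Hist4h4 had 21.4 and 24.7 in PS and 12.2 and 11.6 in RS, and its start was not inside an interval in RS replicate 2.

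Over the 39 members with an interval in every sample, both PS values were above both RS values in 19 (48.7%, against 58.4% of all such genes) and the reverse held in 0 (against 13.9%). Of the 7 members with lower RNA in RS of the dKO, 6 had both PS values above both RS values in wild type, the exception being Hist2h3c1. The 7 lie at 5 distinct places, of which 4 had this order. Of the 2 with higher RNA in RS, 0 did. The share with this order among all genes with lower or higher RNA in RS was not computed. These counts therefore cannot show that RNA and H3K27ac changed together at the members. The RNA and the H3K27ac were from different genotypes and the peak lists were not scaled, so this is a description and was not tested.

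**Figure D5:**
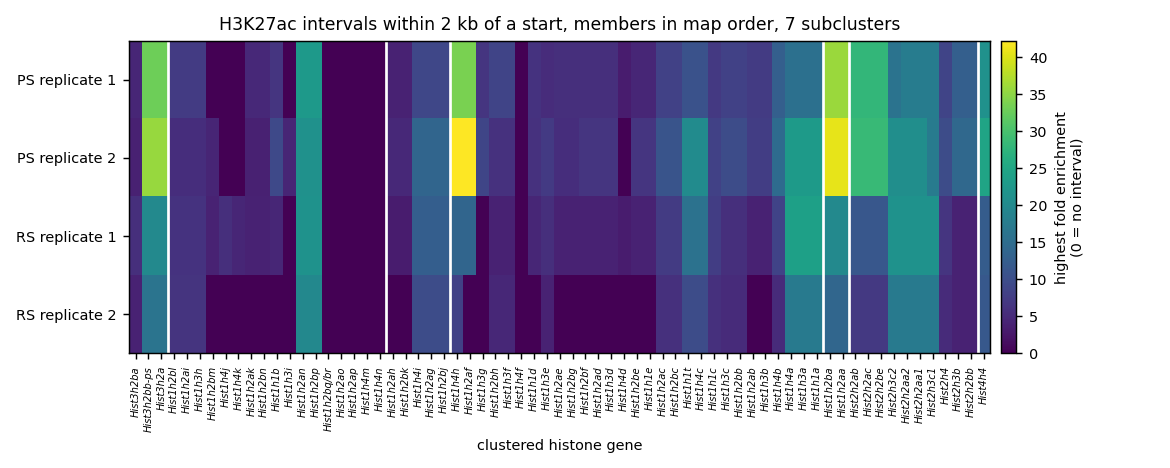
Highest fold enrichment of an H3K27ac interval within 2000 bp of the start (colour, 0 means no interval) for the 67 members (horizontal axis, in map order, white lines between the 7 groups) in the 4 ChIP-seq samples (rows). The bright columns are Hist3h2a, Hist1h4h with Hist1h2af, the Hist1h2ba and Hist1h2aa pair and the Hist2h2be group, and the dark block in all 4 rows is the repeated stretch of the chromosome 13 group with 17 members.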

How the data were processed

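The 8 samples were grouped by their titles into 4 sets of 2 biological replicates: PS and RS of wild-type mice for H3K27ac ChIP-seq, and PS and RS of the Rnf8- and Scml2-dKO for RNA-seq. The members and gene lists were chosen with earlier results of these data known. Per the methods, the authors aligned RNA reads to mm10 with STAR 2.4.2a (unique alignments, at most 2 mismatches), split them between RefSeq isoforms by expectation-maximization, and deposited a read count and an RPKM for every isoform. ChIP reads were aligned with Bowtie, and MACS2 was run on every sample separately. The submitters' processing notes give Bowtie 1.1.1 and MACS2 2.1.0.20140616, and the paper names other versions. Each deposited interval has a pileup signal at its summit, a fold enrichment ratio and -log10 p and q values, not scaled between samples.

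Rows were summed per gene. Counts of genes with at least 10 reads in at least 2 samples were tested with edgeR 4.0.16 (TMM, quasi-likelihood test, Benjamini-Hochberg over all 14647 genes, R 4.3.3), called at an adjusted p of 0.05 or less and 1.5-fold. Alternatives used DESeq2 1.42.0, limma 3.58.1 on log2(RPKM + 1), no filter, no fold threshold, the replicate number as a block, and each sample left out. The fits and the overlap step were tested on simulated data. A start had H3K27ac when an interval lay within 2000 bp. Hairpins had a 16-base form with GG and CC at the ends, a loop beginning TT and at least 5 of 6 paired bases, sought within 150 bases of the stop. Sequences and 50-base windows came from GRCm38.p6 (mm10 coordinates), where 99.9% of 19560 single-row genes overlapped the gene of the same name. Named genes were the testis forms, the Hist3 and Hist4 loci, the 12 members with the highest RPKM, the called members, members with H3K27ac in 1 stage only, and the first 6 at 0 reads; others named beside them were chosen after their values were seen. The marker lists were for pachytene spermatocytes, round spermatids, spermatogonia, Sertoli, Leydig and macrophage cells and S phase. The other lists were genes of histone mRNA transcription, 3′ processing and decay, chaperones and replacement variants. Depth was 9655405 to 12289694 reads on genes per RNA sample, and intervals and limits cover counting error only. ChIP depth was not given in the sources used here.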

Additional observations from a re-analysis of the deposited data

How the results depend on the processing

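The calls of Hist2h2be, Hist3h2a and Hist1h2bp held in all 9 alternative fits. Those of Hist3h2bb-ps and Hist1h4a held in the 7 fits that tested them. The filter dropped Hist3h2bb-ps without either PS sample and Hist1h4a without either RS sample, so these calls could not fail there. Over the 14 tested members, 102 of 112 alternative values kept their call and direction, 7 lost the call, 3 gained it and 0 changed sign. The 112 leave out fits in which the filter dropped a member. These were Hist1h2ba, Hist1h2bc, Hist1h4h and Hist3h2bb-ps without either PS sample, and Hist1h3a, Hist1h4a and Hist2h3c2 without either RS sample. Values without a fold threshold are those of the main fit, so their direction was fixed. The number higher in RS was 1 to 3 with 1 sample left out, and the number lower was 4 to 5. Without an RS sample no lower call was lost to the filter, and those lost were Hist1h2ba, Hist2h2ac and Hist2h3c1 without replicate 1 and Hist1h2ba and Hist1h4h without replicate 2. The 3 gained calls were all Hist1h3a. The replicate numbers are shared by the stages but nothing says that they pair the samples. The deviations of replicate 1 correlated at 0.225 across genes between the stages, with 2 pairs only, and the replicate block gave 3 higher and 7 lower. The number of starts with H3K27ac in both RS samples was 39, and 59 with either sample sufficing. It was 39 to 59 with 1 RS sample left out, so RS replicate 2 sets the main count. For PS it was 53 to 61 over all alternatives. The log2 ratio of summed RPKM was -0.42 to -0.27 with 1 sample left out. It was -1.37 from CPM, -1.29 without Hist1h2bp and, in 2 alternatives added after seeing the data, 0.21 without Hist2h2be and -0.76 without both. The sum therefore rests on 2 genes. Depth limits the rest: 53 of 67 members did not reach the filter, and a fold change of a member with under 10 reads in a stage is imprecise.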
